A study of Mus musculus with 12 samples.

Results

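The 9 genes described here encode the RUNX transcription factors, their shared partner and the other factors that start or hold back the osteoblast program. They are Runx1, Runx2, Runx3, Cbfb, Sp7, Creb3l1, Atf4, Twist1 and Twist2, listed by name among the 24391 genes of each count file. All 9 were found in the files and all 9 passed the filter on low counts in every comparison. RNA sequencing was done on dissected anterior hard palate of C57BL/6 mouse embryos, the tissue that forms the bony roof of the mouth. Mutants carried Shox2Cre and R26RFgf8, so that Cre recombinase driven by Shox2 switches on an Fgf8 transgene, and controls were wild type by their labels. Each of the 4 groups held 3 libraries: mutants and controls at embryonic day 16.5 (E16.5) and mutants and controls at embryonic day 14.5 (E14.5). The labels do not say whether a library came from 1 embryo or a pool, so p-values measure only the spread between these libraries, which may be technical.

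RUNX proteins bind DNA through their Runt domain, and CBFβ, the product of Cbfb, binds no DNA itself but stabilises them on it. RUNX2 is required for osteoblasts to form, and SP7 (osterix) is required after it. ATF4 acts later in the osteoblast, on amino acid supply and matrix production, and CREB3L1 (OASIS) is held in the endoplasmic reticulum membrane, from which it is released to act on genes of collagen synthesis. TWIST1 and TWIST2 are basic helix-loop-helix factors of early mesenchyme that hold back RUNX2. Loss of a copy of RUNX2 or of TWIST1 in humans causes opposite disorders of the skull, with open sutures in cleidocranial dysplasia and fused sutures in Saethre-Chotzen syndrome.

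The core of the DNA word bound by RUNX proteins is ACCACA. Promoter windows of 300 bases, 250 before and 50 after an annotated start, were taken from RefSeq on build GRCm38.p6. There were 9 such windows for 7 of the genes, namely Runx1 and Runx3 with a pair each and Runx2, Cbfb, Twist1, Twist2 and Atf4. The letters ACCACA were searched on both strands. They occurred at least once in 16.8% of all 32851 windows and at least 3 times in 0.183%. The Runx2 window held 3 matches, and one window each of Runx1 and Runx3 held 2. The other windows of Runx1 and Runx3, and those of Cbfb, Twist1, Twist2 and Atf4, held 0. The sequences around the paired matches are shown because the same 18 letters, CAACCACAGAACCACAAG, stand in all 3 RUNX genes, the longest run that these 3 windows share. They were found in these windows and not searched for beforehand. Capitals mark each ACCACA.
Runx1, chr16:92826026-92826055, minus strand: tcataaacaACCACAgaACCACAagttggg
Runx2, chr17:44814584-44814613, minus strand: tcacaaacaACCACAgaACCACAagtgcgg
Runx3, chr4:135120502-135120531, plus strand: ggtccctcaACCACAgaACCACAaggccag
The 18 letters occurred in 4 windows in all, or 0.0122%, the fourth being that of the predicted gene Gm16225, which overlaps the Runx3 window on the opposite strand and holds the same stretch of DNA. In Runx1 and Runx2 they lie after the annotated start, and in Runx3 before it. The remaining match of Runx2 lies in the 250 bases before its start, on the minus strand of chr17:44814628-44814877, printed because Runx2 carries the most matches of the 9 windows.
Runx2 promoter: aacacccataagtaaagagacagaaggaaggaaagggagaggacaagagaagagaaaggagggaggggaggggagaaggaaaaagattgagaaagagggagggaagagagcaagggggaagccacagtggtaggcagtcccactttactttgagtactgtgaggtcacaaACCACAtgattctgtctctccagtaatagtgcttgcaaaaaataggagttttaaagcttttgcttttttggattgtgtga
A match describes the letters only, since no binding was measured.

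Total counts were 76417891 to 125996587 per library, and levels are CPM (counts scaled to a common library total) scaled with TMM factors over the 12 libraries. The 9 genes were counted deeply, from 219 Runx3 counts in an E16.5 mutant library upwards. Fgf8 checked the labels: it averaged 16.1 ± 1.93 CPM in E16.5 mutants and 0.383 ± 0.11 CPM in E16.5 controls, and 10.8 ± 0.275 CPM in E14.5 mutants and 0.316 ± 0.0938 CPM in E14.5 controls (SD, n = 3 each). All markers of palate mesenchyme were detected in every group. Genes of the retina were present in E16.5 mutant libraries 1 and 3, where Fgf15, a secreted factor, stood at 40.4 and 21.2 CPM, against 0.347 CPM in mutant library 2. Xist, the RNA of the inactive X chromosome, averaged 899 ± 13.4 CPM in E16.5 mutants and 404 ± 71.4 CPM in E16.5 controls, and 486 ± 41 CPM in E14.5 mutants and 779.9 ± 76.9 CPM in E14.5 controls (SD, n = 3 each). The labels do not give the sex of the embryos, and its part in the results was not tested.

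Runx2, Sp7 and Creb3l1 were lower in mutants at both ages, and their order of levels over the 4 groups was the same. E14.5 controls were highest, then E14.5 mutants, then E16.5 controls, with E16.5 mutants lowest, and no neighbours in that order overlapped. Runx3 was also lower in mutants at both ages, at levels under 10 CPM. Cbfb was higher in mutants at E16.5. Runx1, Atf4, Twist1 and Twist2 did not pass the test between genotypes at either age in the fit without a replicate block. With the replicate number as a block, Runx1 was also called lower at E16.5 (adjusted p = 0.00638, edgeR), and Atf4 was called lower at E14.5. A gene was called at an adjusted p under 0.05 in edgeR's quasi-likelihood test with Benjamini-Hochberg adjustment over all genes tested.

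**Figure D1:**
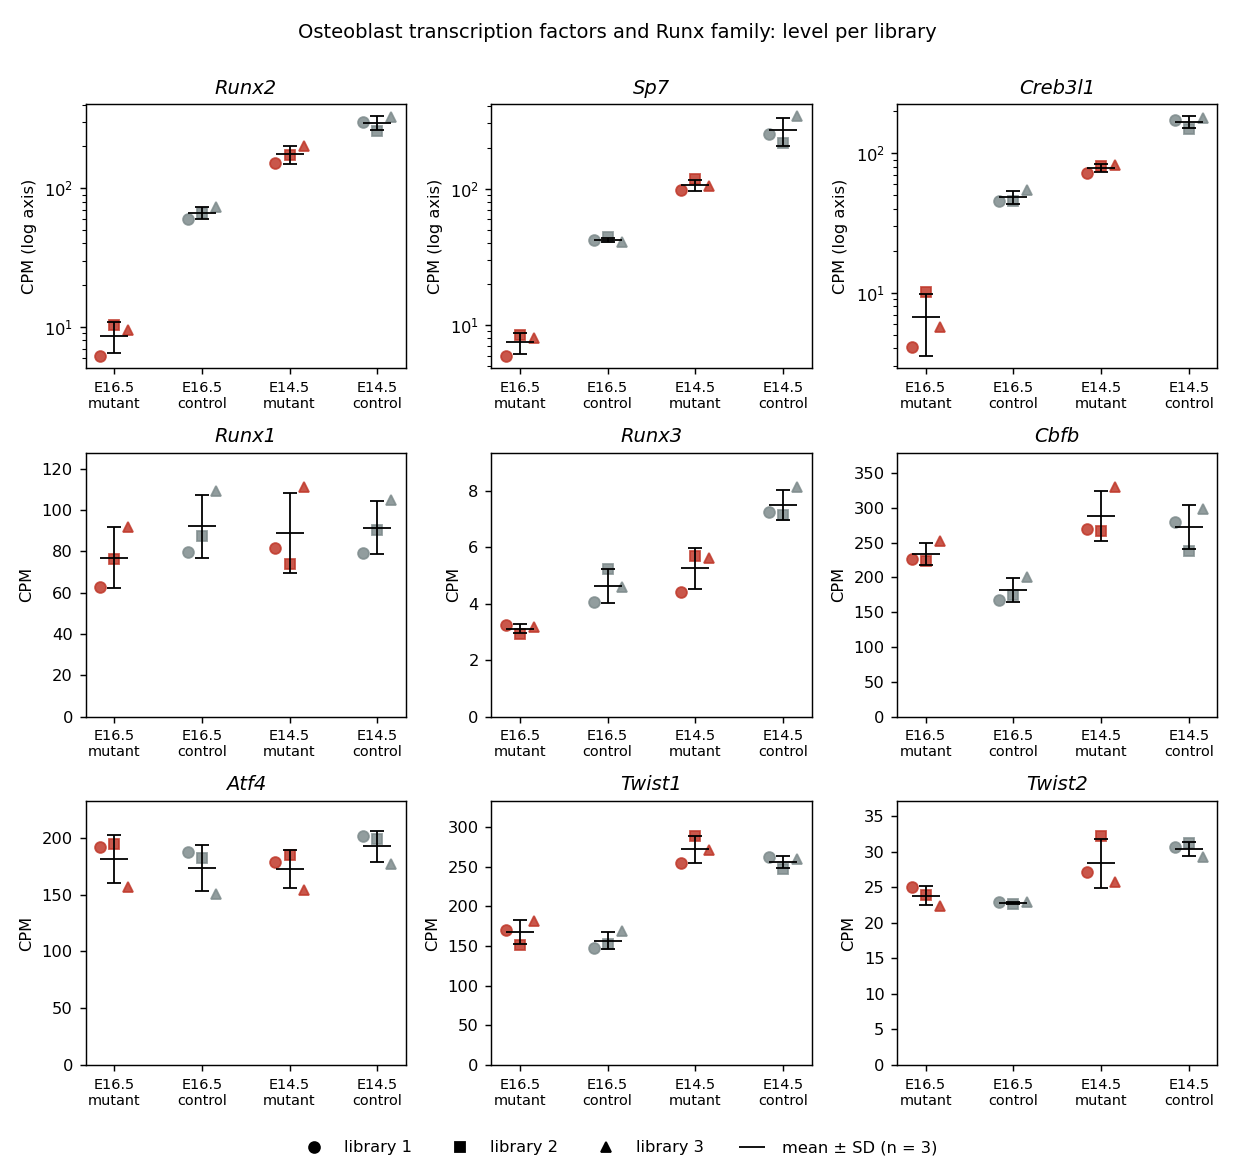
Level of each of the 9 genes in each of the 12 libraries, in CPM on a log axis for Runx2, Sp7 and Creb3l1 and on a linear axis from 0 for the others. Red points are mutant and grey points control libraries, the shape gives the library number, and bars give the mean ± SD (n = 3). Runx2, Sp7 and Creb3l1 stand in 4 separate steps, with E16.5 mutants at 4.1 to 10.3 CPM.

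The question at each age was what Fgf8 expression in the Shox2 domain does to osteogenic genes of the anterior palate. At E14.5, 4 of the 9 genes were lower in mutants and 0 higher, where 4.57% of the 16650 genes tested were called lower and 2.95% higher. The same 4 genes were those whose groups did not overlap, a pattern seen in 28.6% of all genes tested. With the replicate block, Atf4 was also called lower at E14.5. At E16.5, 4 were lower and 1 higher (5 and 1 with the replicate block), where 15.7% of 17169 genes were called lower and 12.2% higher. Those 5 were again the ones without overlap, against 42.9% of all genes tested. With replicates 1 and 2 alone, 3 were lower at E14.5, and 3 lower and 1 higher at E16.5; the libraries numbered 3 leave 1 in each group and give no test. The median log2 fold change of the 9 genes was -0.16 at E14.5 and -0.24 at E16.5, where that of all genes was 0.01 at both ages. In bulk tissue, fewer cells of a type and less RNA per cell cannot be told apart.

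Runx2, which commits mesenchymal cells to the osteoblast lineage, stood at 152, 173 and 202 CPM in E14.5 mutants, against 300.5, 259 and 326 CPM in E14.5 controls. All mutant libraries were below all controls. The log2 fold change was -0.75 (SE 0.11, adjusted p = 0.00258), or 1.68-fold lower in mutants. At E16.5 Runx2 was at 6.17, 10.3 and 9.5 CPM in mutants, against 59.8, 66.6 and 73.6 CPM in controls. The highest mutant library was far below the lowest control, and the log2 fold change was -2.93 (SE 0.18, adjusted p = 1.25e-05), or 7.63-fold lower. Counted from the lowest log2 fold change among the 17169 genes tested at E16.5, Runx2 held rank 15, Creb3l1 rank 18 and Sp7 rank 51. The authors' deposited table gave Runx2 -2.79 at E16.5 and -0.67 at E14.5. GENCODE places Runx2os1 on the opposite strand across Runx2. It is not named in the count files, and as the strand setting of the counting is not given, reads of the pair cannot be told apart.

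Runx1, best known from blood stem cells and also present in skeletal progenitors, was at 81.8, 74 and 111 CPM in E14.5 mutants, against 79.1, 90.4 and 105 CPM in E14.5 controls. The groups overlapped, and the log2 fold change was -0.04 (95% interval -0.32 to 0.24, adjusted p = 0.893). Its E16.5 values were 62.6, 76.3 and 91.8 CPM in mutants, against 79.7, 87.3 and 109 CPM in controls. These groups also overlapped, with a log2 fold change of -0.24 (95% interval -0.53 to 0.05, adjusted p = 0.275). Within each number the mutant was the lower at E16.5, and with the replicate number as a block the adjusted p was 0.00638. Library 3 was the highest of its group for Runx1 in all 4 groups. The predicted gene Gm26626 lies on the opposite strand across Runx1 and is likewise not named in the count files.

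Runx3, studied mainly in T cells, neurons and cartilage, was the least abundant of the 9 genes. It was at 4.41, 5.69 and 5.63 CPM in E14.5 mutants, against 7.23, 7.13 and 8.12 CPM in E14.5 controls. All mutants were below all controls, with a log2 fold change of -0.51 (SE 0.13, adjusted p = 0.0379). At E16.5 it was at 3.23, 2.92 and 3.18 CPM in mutants, against 4.05, 5.24 and 4.59 CPM in controls. Here too the groups did not overlap, and the log2 fold change was -0.55 (SE 0.16, adjusted p = 0.0358). Both calls were lost when single libraries were left out. At E14.5 the adjusted p was 0.136 or 0.0668 without mutant library 1 or 2, and 0.0729 or 0.137 without control library 1 or 3. At E16.5 it was 0.053 or 0.0845 without mutant library 1 or 3, and 0.0518, 0.135 or 0.0822 without control library 1, 2 or 3. With replicates 1 and 2 alone it was 0.164 at E16.5 and 0.145 at E14.5. Markers of blood cells, in which Runx3 and Runx1 are also expressed, summed to 125 to 162 CPM in E14.5 mutants and 178 to 181 CPM in E14.5 controls, with 4 of 15 lower and 0 higher. At E16.5 they summed to 189.9 to 200.0 CPM in mutants and 209 to 223 CPM in controls, with 1 of 15 lower and 0 higher. The share of all genes called lower was 4.57% at E14.5 and 15.7% at E16.5. Cd3e, a defining marker of T cells, was at 0.0451 CPM or less in every library. The part of blood cells in the Runx3 values was not tested.

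Counts per kilobase of exon allow levels of different genes to be compared. The exon lengths came from GENCODE M21 on GRCm38, while the authors counted on mm9 with an annotation not given in the sources used here, so these values are approximate. Of the summed RUNX level per kilobase, Runx2 made up 9.89 ± 1.61% in E16.5 mutants and 41.2 ± 1.28% in E16.5 controls. At E14.5 its share was 65.3 ± 2.59% in mutants and 74.7 ± 2.53% in controls (SD, n = 3 each). Runx1 made up 83.9 ± 1.41% of it in E16.5 mutants and 53.9 ± 1.9% in E16.5 controls, and 31.3 ± 3.02% in E14.5 mutants and 22.1 ± 2.44% in E14.5 controls. Thus Runx2 had the largest share of the 3 genes in both E14.5 groups and Runx1 in both E16.5 groups. Per kilobase, Runx2 stood at 1.22 CPM in E16.5 mutants and Runx1 at 10.3 CPM, against 9.4 CPM of Runx2 and 12.3 CPM of Runx1 in E16.5 controls. Runx3 had 6.21 ± 1.31% in E16.5 mutants and 4.88 ± 0.699% in E16.5 controls, ranges that overlapped.

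Cbfb, the partner of all 3 RUNX proteins, moved the other way from Runx2 at E16.5. It was at 227, 223 and 252 CPM in E16.5 mutants, against 168, 175 and 201 CPM in E16.5 controls, with all mutants above all controls. The log2 fold change was 0.39 (SE 0.09, adjusted p = 0.0116), or 1.31-fold higher. The adjusted p was 0.0597 or 0.0678 without control library 1 or 2, and 0.111 without mutant libraries 1 and 3. At E14.5 Cbfb was at 269, 266 and 329.6 CPM in mutants, against 280.3, 238 and 299 CPM in controls. These groups overlapped, with a log2 fold change of 0.08 (95% interval -0.12 to 0.28, adjusted p = 0.687). There were 28.3 ± 7.72 Cbfb counts per Runx2 count in E16.5 mutants and 2.72 ± 0.0902 in E16.5 controls, and 1.65 ± 0.115 in E14.5 mutants and 0.923 ± 0.00854 in E14.5 controls (SD, n = 3 each).

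Sp7, the zinc finger factor required after RUNX2, was at 97.4, 117 and 104 CPM in E14.5 mutants, against 253, 215 and 338 CPM in E14.5 controls. All mutants were below all controls, and the log2 fold change was -1.34 (SE 0.15, adjusted p = 0.000406), the largest of the 9 genes at that age. In E16.5 tissue Sp7 was at 5.94, 8.42 and 8.09 CPM in mutants, against 41.9, 44 and 40.5 CPM in controls. The groups were again apart, with a log2 fold change of -2.48 (SE 0.13, adjusted p = 7.79e-06), or 5.56-fold lower. The authors' deposited table gave Sp7 -2.4 at E16.5 and -0.92 at E14.5. The E14.5 value lay outside the range of -1.48 to -1.12 over the alternative fits made here, and the reason was not tested.

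Creb3l1, the membrane-bound factor of collagen-secreting osteoblasts, was at 72.5, 80.8 and 82 CPM in E14.5 mutants, against 174, 149 and 179 CPM in E14.5 controls. No mutant reached the controls, and the log2 fold change was -1.09 (SE 0.08, adjusted p = 2.62e-05). Creb3l1 at E16.5 was at 4.1, 10.2 and 5.74 CPM in mutants, against 45.4, 45.5 and 54.1 CPM in controls. The groups did not overlap, and library 2 was the highest of the 3 mutants. The log2 fold change was -2.85 (SE 0.28, adjusted p = 0.00015). Without mutant libraries 1 and 3, those with retinal genes, it was -2.24 (adjusted p = 1.03e-05) for Creb3l1, -2.69 for Runx2 (adjusted p = 3.96e-06) and -2.32 for Sp7 (adjusted p = 4.36e-06), with the remaining library taken to vary like the other groups. The authors' deposited table gave Creb3l1 -2.23 at E16.5 and -1.02 at E14.5. Over the alternative fits made here the E16.5 value ranged from -3.28 to -2.24.

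Atf4, whose protein level is set largely by translation, was at 179, 185 and 154 CPM in E14.5 mutants, against 202, 199 and 177 CPM in E14.5 controls. The groups overlapped, with a log2 fold change of -0.16 (95% interval -0.32 to 0.0, adjusted p = 0.275). Within each number the mutant was the lower at E14.5, and with the replicate number as a block Atf4 was called lower. Its levels at E16.5 were 192, 195 and 157 CPM in mutants, against 188, 182 and 150.3 CPM in controls. Here the log2 fold change was 0.09 (95% interval -0.14 to 0.32, adjusted p = 0.618). In contrast to Runx1 and Cbfb, for which library 3 was the highest of each group, library 3 had the lowest Atf4 value in all 4 groups.

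Twist1, the more abundant of the paired Twist genes, was at 255, 289 and 271 CPM in E14.5 mutants, against 262, 247 and 259 CPM in E14.5 controls. At E16.5 it was at 169.5, 151 and 181 CPM in mutants, against 148, 153 and 169 CPM in controls. The groups overlapped at both ages, with log2 fold changes of 0.12 at E16.5 (95% interval -0.06 to 0.29, adjusted p = 0.37) and 0.09 at E14.5 (95% interval -0.04 to 0.21, adjusted p = 0.449). Twist2 was at 27.2, 32.3 and 25.7 CPM in E14.5 mutants, against 30.7, 31.3 and 29.3 CPM in E14.5 controls. In E16.5 mutants it was at 25.1, 24 and 22.4 CPM, against 22.9, 22.7 and 22.9 CPM in E16.5 controls. These groups overlapped as well, with log2 fold changes of 0.09 at E16.5 (95% interval -0.06 to 0.24, adjusted p = 0.443) and -0.1 at E14.5 (95% interval -0.27 to 0.07, adjusted p = 0.543). The intervals exclude a change of 2-fold in either Twist gene at either age. The predicted gene Gm29100 lies on the opposite strand across Twist2 and is not named in the count files.

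The number of Twist1 counts per Runx2 count sets the inhibitor against the factor it holds back. There were 27.5, 14.6 and 19.1 Twist1 counts per Runx2 count in E16.5 mutants, against a mean of 2.36 ± 0.106 in E16.5 controls. At E14.5 there were 1.68, 1.67 and 1.34 in mutants, against a mean of 0.874 ± 0.0795 in controls (SD, n = 3). All mutants were above all controls at both ages. Since Twist1 differed little between genotypes, this ratio and that of Runx1 restate the lower Runx2 level, and they are given as a description, with no test. The mean of Runx1 counts per Runx2 count was 9.08 ± 1.46 in E16.5 mutants and 1.37 ± 0.0922 in E16.5 controls, and 0.506 ± 0.0671 in E14.5 mutants and 0.312 ± 0.0443 in E14.5 controls, also without overlap at either age.

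Sp7 and Runx2 did not keep 1 proportion. At E14.5 there were 0.641, 0.681 and 0.515 Sp7 counts per Runx2 count in mutants, against 0.84, 0.83 and 1.04 in controls, so that every mutant was lower. At E16.5 there were 0.962, 0.819 and 0.851 in mutants, against 0.701, 0.66 and 0.551 in controls, so that every mutant was higher. The exact two-sided permutation p was 0.1 at each age, the smallest that 3 against 3 libraries can give, and 7 such ratios were each compared in 4 ways, so no value can pass the threshold. Creb3l1 counts per Runx2 count averaged 0.451 ± 0.0386 in E14.5 mutants and 0.568 ± 0.0159 in E14.5 controls, with every mutant lower. At E16.5 they averaged 0.752 ± 0.206 in mutants and 0.725 ± 0.0391 in controls (SD, n = 3 each), which overlapped (exact permutation p = 1).

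**Figure D2:**
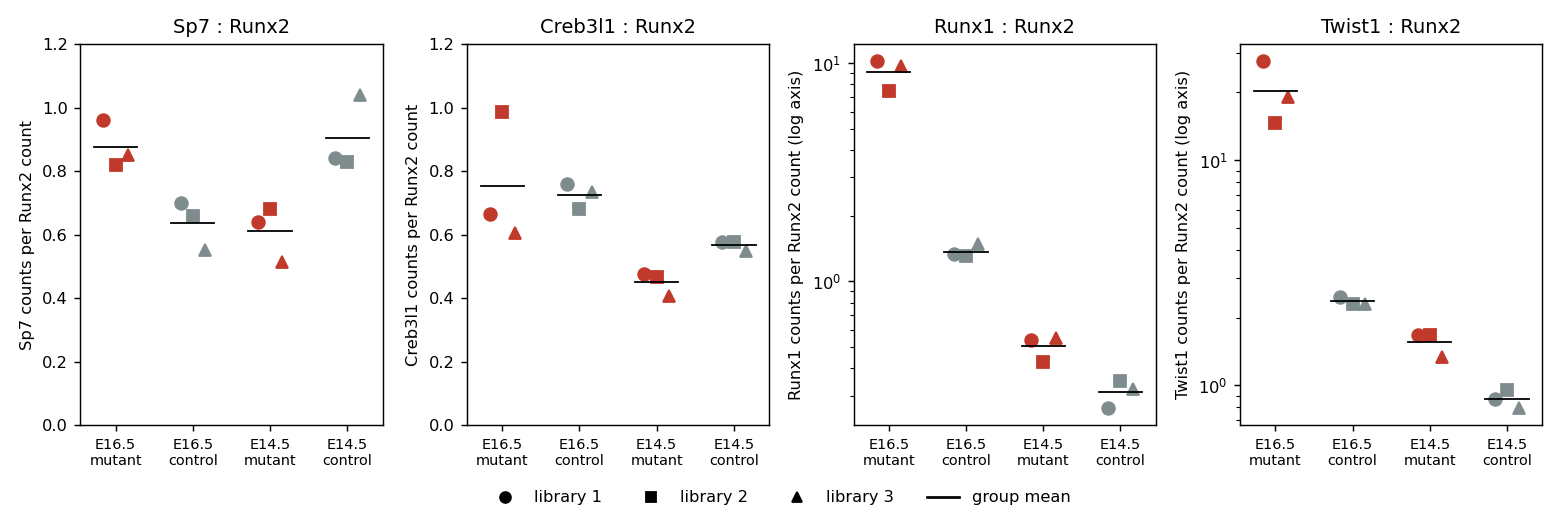
Counts of Sp7, Creb3l1, Runx1 and Twist1 per Runx2 count in each library, with a line at the mean of each group. The 2 left panels have linear axes from 0 and the 2 right panels log axes. Sp7 per Runx2 was 0.877 ± 0.0755 in E16.5 mutants and 0.637 ± 0.0778 in E16.5 controls, but 0.612 ± 0.0867 in E14.5 mutants and 0.903 ± 0.118 in E14.5 controls.

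Whether the genotype effect changed with age was tested directly, in 1 fit of all 12 libraries, as the log2 fold change at E16.5 minus that at E14.5. It was more negative at E16.5 for Runx2, Sp7 and Creb3l1, so 3 of the 9 genes were called lower and 0 higher, where 12.4% of 17550 genes were called lower and 9.97% higher. The difference was -2.2 for Runx2 (SE 0.23, adjusted p = 4.87e-05), -1.78 for Creb3l1 (SE 0.31, adjusted p = 0.00151) and -1.16 for Sp7 (SE 0.22, adjusted p = 0.00247). That of Creb3l1 was -1.13 without E16.5 mutant libraries 1 and 3 (adjusted p = 0.00158), and its adjusted p was 0.0547 with replicates 1 and 2 alone. For Runx3 the difference was -0.06 (95% interval -0.43 to 0.32, adjusted p = 0.87) and was not called. That interval is wide beside the Runx3 effects themselves, -0.55 at E16.5 and -0.51 at E14.5, so a like size at both ages is not shown. For Cbfb the difference was 0.29 (95% interval -0.01 to 0.58, adjusted p = 0.199).

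With age, 7 of the 9 genes were lower at E16.5 than at E14.5 in mutants, where 24.4% of all genes tested were called lower, and 7 were lower in controls, where 32.1% were. They were the same 7 genes, all but Runx1 and Atf4, and these age comparisons use the same libraries as those between genotypes. The E16.5 and E14.5 groups of those 7 genes did not overlap in either genotype, against 56.3% of all genes tested in mutants and 72% in controls. Runx2 was 20.4-fold lower at E16.5 in mutants (log2 fold change -4.35, SE 0.19, adjusted p = 8.8e-10) and 4.42-fold lower in controls (-2.15, SE 0.17, adjusted p = 1.13e-07). Sp7 was 14.3-fold lower in mutants and 6.37-fold lower in controls, and Creb3l1 11.9-fold lower in mutants and 3.46-fold lower in controls. Cell type markers also differed between the ages. Epithelial markers summed to 13191 to 14668 CPM in E16.5 controls and 1243 to 2044 CPM in E14.5 controls. In mutants the sums were 8383 to 13519.7 CPM at E16.5 and 2054 to 2287 CPM at E14.5. Of 13 palate mesenchyme markers, 9 were lower at E16.5 in mutants and 10 in controls, with 1 higher in each. The part of these cell types in the age changes was not tested.

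Twist1 fell with age by nearly the same amount in both genotypes, with a log2 fold change of -0.7 in mutants (SE 0.08, adjusted p = 7.37e-06) and -0.71 in controls (SE 0.08, adjusted p = 3.24e-06). The difference between those was 0.01 (adjusted p = 0.973). Runx3 fell by 0.75 on the log2 scale in mutants and by 0.7 in controls. Cbfb fell by 0.3 in mutants (adjusted p = 0.0306) and by 0.59 in controls (adjusted p = 0.000286). In mutants the Cbfb call was lost without any of E14.5 mutant library 3, E16.5 mutant library 1 or 2 and E16.5 control library 1 or 2, with adjusted p from 0.0537 to 0.222. The call of Twist2 in mutants (-0.25, adjusted p = 0.0219) was likewise lost without E14.5 mutant library 1 or 2, E14.5 control library 2, E16.5 mutant library 2 or 3 or E16.5 control library 1 or 2, with adjusted p from 0.0544 to 0.223. In controls Twist2 fell by 0.41 (adjusted p = 0.00062). Runx1 had log2 fold changes of -0.21 in mutants (adjusted p = 0.336) and 0.01 in controls (adjusted p = 0.977), and Atf4 0.07 (adjusted p = 0.608) and -0.15 (adjusted p = 0.225).

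**Figure D3:**
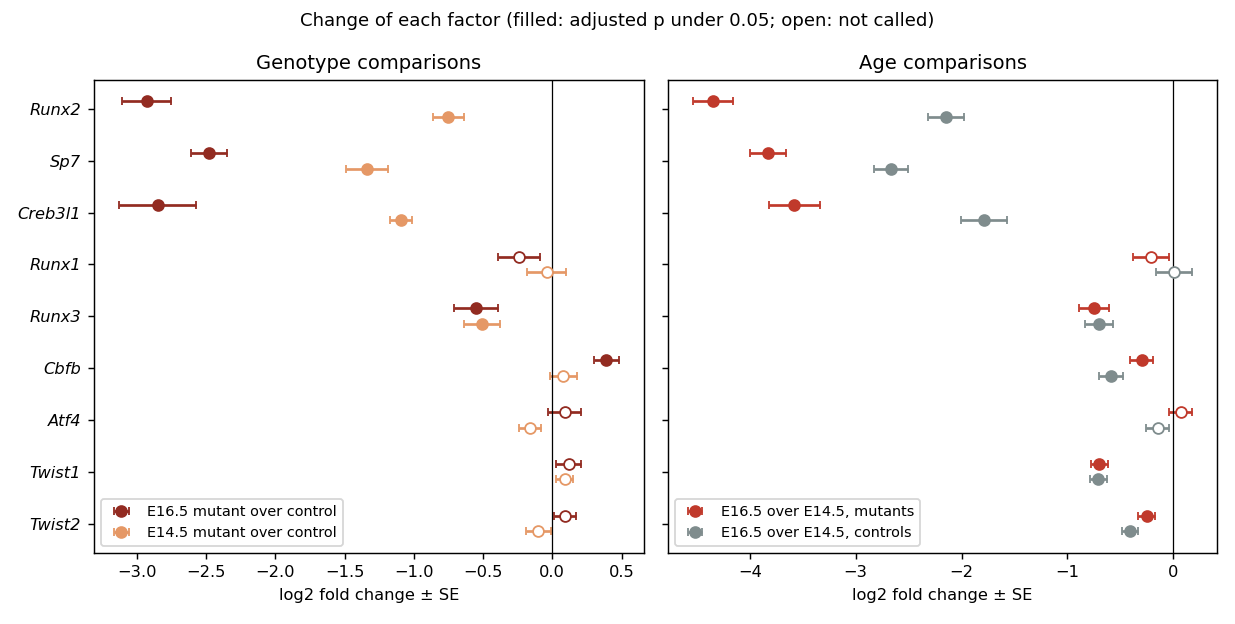
Log2 fold change of each of the 9 genes, mutant over control at each age on the left and E16.5 over E14.5 in each genotype on the right, with bars of ± 1 SE from edgeR; filled points are called and open points are not. For Runx2 the mutant over control value is -2.93 at E16.5 and -0.75 at E14.5, while Twist1 lies at 0.12 and 0.09.

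Genes whose levels over the 12 libraries were most like those of Runx2, Sp7 and Creb3l1 were found by the root mean square difference of centred log2 CPM, among 12847 genes, where 0 would mean the same course. Since the likeness includes the age and genotype steps themselves, it describes the levels only. Closest to Runx2 were Sp7 (0.296), Dlx5 (0.313), Creb3l1 (0.335), Col13a1 (0.439) and Slc13a5 (0.44). Dlx5, a homeobox factor of early osteoblasts, averaged 2.25 CPM in E16.5 mutants and 12.4 CPM in E16.5 controls, and 26.9 CPM in E14.5 mutants and 49.4 CPM in E14.5 controls. Closest to Sp7 were Slc13a5, a citrate transporter (0.24), Dlx5 (0.288), Phospho1, a phosphatase of matrix mineralisation (0.293), Runx2 (0.296) and Kazald1 (0.308). Closest to Creb3l1 were the transmembrane collagen gene Col13a1 (0.259), Dlx5 (0.273), the fibronectin gene Fn1 (0.273), Runx2 (0.335) and Tmem119 (0.34). Dlx5 was thus among the 5 closest genes to each of the 3.

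Genes that RUNX2 and SP7 are known to act on in bone matrix and mineralisation were mostly lower in mutants at E14.5. Of 20 such genes tested, 15 were lower and 0 higher at E14.5, with a median log2 fold change of -1.04 where that of all genes was 0.01. At E16.5, 10 were lower, 2 higher and 8 not called, with a median of -0.33. Over all genes, 4.57% were called lower at E14.5, and 15.7% lower and 12.2% higher at E16.5. Ibsp, the bone sialoprotein gene, averaged 33.8 ± 0.896 CPM in E16.5 mutants and 330.0 ± 62.1 CPM in E16.5 controls (log2 fold change -3.26, adjusted p = 6.33e-06). Col11a2, a fibrillar collagen gene, averaged 8.05 ± 1.89 CPM in E16.5 mutants and 39.7 ± 3.11 CPM in E16.5 controls (-2.29, adjusted p = 1.95e-05). The 2 higher genes were Col5a3, a type V collagen chain (0.7, adjusted p = 0.0165), and Mmp13, a collagenase of RUNX2-driven remodelling (0.6, adjusted p = 0.0141). Osteocalcin RNA was scarce: Bglap had 2 counts in each E14.5 mutant library, against 36, 92 and 43 in E14.5 controls, and its near-identical copy Bglap2 had 2, 0 and 0 counts in E14.5 mutants, against 21, 136 and 73 in E14.5 controls. Reads of these copies may be split between them.

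Unlike Runx2 and Sp7, most genes of this list had no more negative effect at E16.5. The difference between ages was called for 14 of the 20 genes, of which 10 had a more positive log2 fold change at E16.5 and 4 a more negative one. The shares over all genes were 9.97% more positive and 12.4% more negative. Among the 10 were Alpl, the bone alkaline phosphatase gene (0.76, adjusted p = 0.000121), Phex, a phosphate-regulating peptidase gene (1.68, adjusted p = 0.000178), and Sparc, the osteonectin gene (0.75, adjusted p = 0.000106). The 4 were Col1a2 (-1.83, adjusted p = 0.00111), Ibsp (-1.11, adjusted p = 0.000571), Ifitm5, an osteoblast membrane protein gene (-0.63, adjusted p = 0.0202), and Vegfa, an angiogenic factor gene (-2.09, adjusted p = 8.94e-05).

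Among 29 other osteoblast transcription factors tested, 10 were lower and 0 higher in mutants at E14.5, where 4.57% of all genes were called lower. At E16.5, 4 were lower and 8 higher, where 15.7% of all genes were called lower and 12.2% higher. At E14.5 Dlx3, a homeobox factor, averaged 31.4 ± 4.49 CPM in mutants and 61.7 ± 5.88 CPM in controls (log2 fold change -0.98, adjusted p = 0.000375). Vdr, the vitamin D receptor gene, averaged 5.45 ± 0.359 CPM in E14.5 mutants and 10.4 ± 0.651 CPM in E14.5 controls (-0.93, adjusted p = 0.000465). At E16.5 Dlx5 fell in mutants (-2.45, adjusted p = 1.53e-05), while Ebf2 averaged 5.25 ± 1.68 CPM in mutants and 1.78 ± 0.15 CPM in controls (1.59, adjusted p = 0.00274). Ebf2, Sox11 (0.89, adjusted p = 0.017) and Lef1, a mediator of Wnt signalling (0.71, adjusted p = 0.0357), are also expressed by mesenchymal progenitors. Of the difference between ages, 8 were called more positive at E16.5 and 1, Dlx5, more negative (-1.6, adjusted p = 0.000151). Over all genes, 9.97% were called more positive and 12.4% more negative.

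Of 30 cofactors and modulators of RUNX proteins, 2 were lower and 0 higher at E14.5, where 4.57% of all genes were called lower. These were Zfp521, a zinc finger inhibitor of RUNX2, at 152 ± 4.94 CPM in mutants and 219 ± 14.8 CPM in controls (-0.53, adjusted p = 0.000764), and Hdac5, a deacetylase (-0.22, adjusted p = 0.026). At E16.5, 4 of the 30 were higher and 1 lower, where 12.2% of all genes were called higher and 15.7% lower. Tle2, a Groucho corepressor, averaged 39.4 ± 5.92 CPM in E16.5 mutants and 21 ± 2.24 CPM in E16.5 controls (0.94, adjusted p = 0.00106). Rb1, the retinoblastoma gene, fell in E16.5 mutants (-0.55, adjusted p = 0.00581).

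Of 25 genes of the collagen-secretion path on which CREB3L1 acts, 12 were lower, 0 higher and 13 not called at E14.5, with a median log2 fold change of -0.23. At E16.5, 2 were lower and 6 higher, with a median of 0.07. The shares over all genes were 4.57% lower at E14.5, and 15.7% lower and 12.2% higher at E16.5. Fkbp10, a chaperone of collagen folding, averaged 195 ± 8.72 CPM in E14.5 mutants and 295 ± 13.1 CPM in E14.5 controls (-0.6, adjusted p = 0.00023). At E16.5 Fkbp10 averaged 149 ± 2.3 CPM in mutants and 125 ± 6.32 CPM in controls (0.28, adjusted p = 0.0161). Crtap, a partner of the collagen prolyl 3-hydroxylase, averaged 122 ± 7.33 CPM in E16.5 mutants and 92.9 ± 0.962 CPM in E16.5 controls (0.41, adjusted p = 0.00345). The difference between ages was called for 11 of the 25 genes, all with a more positive value at E16.5, including Fkbp10 (0.86, adjusted p = 2.48e-05) and Serpinh1, the collagen chaperone HSP47 (0.5, adjusted p = 0.00039). A more positive difference was called for 9.97% of all genes.

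Of 32 target genes of ATF4 in amino acid supply and stress, 2 were lower and 0 higher at E14.5, where 4.57% of all genes were called lower. At E16.5, 3 were lower and 1 higher, where 15.7% of all genes were called lower and 12.2% higher. Nupr1, a stress-induced chromatin protein gene, was lower in mutants at both ages (-0.84 at E16.5, adjusted p = 0.00755, and -1.34 at E14.5, adjusted p = 0.000433). Psat1, of serine synthesis, averaged 260.2 ± 40.1 CPM in E16.5 mutants and 373 ± 31.4 CPM in E16.5 controls (-0.5, adjusted p = 0.0124). Among 12 partners and relatives of TWIST, 4 were higher and 0 lower at E14.5, and 5 higher and 1 lower at E16.5. The share of all genes called higher was 2.95% at E14.5 and 12.2% at E16.5. Id4, an inhibitor of basic helix-loop-helix dimers, averaged 67.4 ± 4.77 CPM in E16.5 mutants and 32.3 ± 3.48 CPM in E16.5 controls (1.08, adjusted p = 5.46e-05), and 56.6 ± 6.26 CPM in E14.5 mutants and 33.4 ± 1.13 CPM in E14.5 controls (0.76, adjusted p = 0.000318). Tcf12, a dimer partner of TWIST1, averaged 413 ± 22.1 CPM in E14.5 mutants and 354 ± 12.2 CPM in E14.5 controls (0.22, adjusted p = 0.0481).

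**Figure D4:**
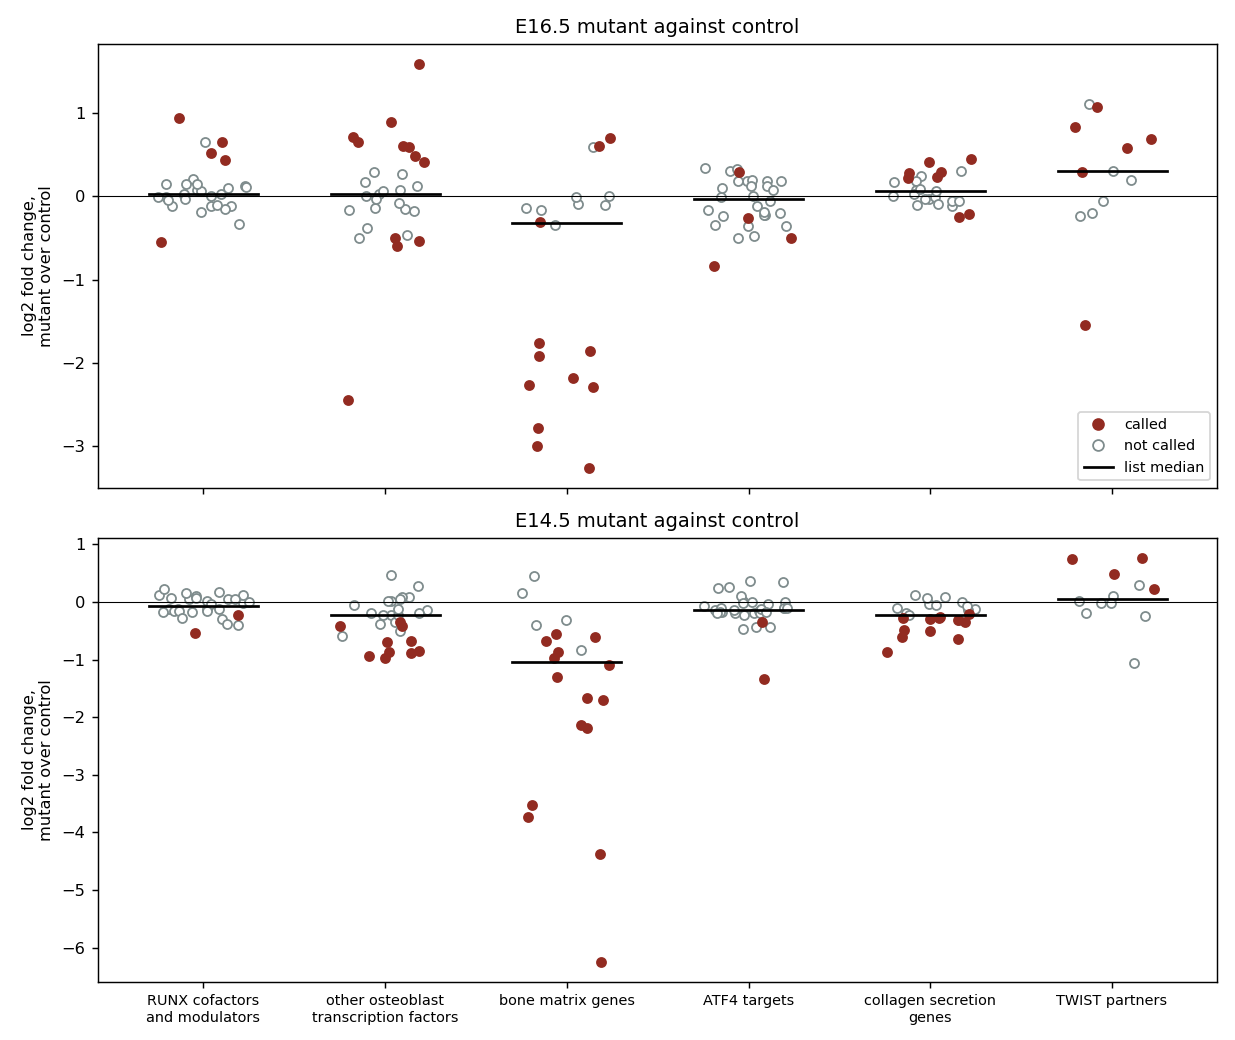
Log2 fold change of mutant over control for each tested gene of 6 lists, at E16.5 above and E14.5 below; filled points are called, open points are not, and bars are list medians. Bone matrix genes have medians of -0.33 at E16.5 and -1.04 at E14.5, and the lowest E14.5 point, Bglap2, has 0 counts in 2 mutant libraries, so its fitted value depends on the prior count.

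Markers of other cell types also differed between the groups. Of all genes tested, 4.57% were called lower and 2.95% higher at E14.5, and 15.7% lower and 12.2% higher at E16.5. Cartilage markers summed to 906 to 1085 CPM in E16.5 mutants and 527 to 599 CPM in E16.5 controls. Of these, 9 of 15 were higher and 1 lower. At E14.5 they summed to 891 to 966 CPM in mutants and 966 to 1152 CPM in controls, with 6 higher and 3 lower. Col11a1, a fibrillar collagen gene among the 3, took much of the E14.5 sums. It averaged 321 ± 19.8 CPM in E14.5 mutants and 635 ± 48.6 CPM in E14.5 controls. Endothelial markers summed to 419.7 to 531 CPM in E16.5 mutants and 306 to 321 CPM in E16.5 controls, with 10 of 12 higher and 0 lower. At E14.5 they summed to 579 to 600.3 CPM in mutants and 689.7 to 739 CPM in controls, with 7 of 12 lower and 0 higher. Markers of palate mesenchyme summed to 1813 to 2710.0 CPM in E16.5 mutants and 904 to 1056 CPM in E16.5 controls, and 2166 to 2487 CPM in E14.5 mutants and 1289 to 1437 CPM in E14.5 controls. Of 13 such markers, 8 were higher and 2 lower at E16.5, and 4 higher and 1 lower at E14.5. Prrx1, a homeobox gene of facial and limb mesenchyme, took much of these sums, with 1648 ± 474 CPM in E16.5 mutants and 441 ± 51.7 CPM in E16.5 controls, and 1172 ± 138 CPM in E14.5 mutants and 233 ± 30.5 CPM in E14.5 controls (SD, n = 3 each). Mn1, a transcriptional coregulator needed for the palate, was lower in mutants at both ages (-2.3 at E16.5, adjusted p = 0.00017, and -1.94 at E14.5, adjusted p = 2.43e-06). Osteoclast markers summed to 191 to 220.1 CPM in E16.5 mutants and 180.1 to 192 CPM in E16.5 controls, and 264 to 274 CPM in E14.5 mutants and 334 to 362 CPM in E14.5 controls. Of these, 4 of 11 were higher and 1 lower at E16.5, and 0 of 12 higher and 6 lower at E14.5. Epithelial markers summed to 8383 to 13519.7 CPM in E16.5 mutants and 13191 to 14668 CPM in E16.5 controls, against 2054 to 2287 CPM in E14.5 mutants and 1243 to 2044 CPM in E14.5 controls. Of 15 epithelial markers, 0 were higher and 6 lower at E16.5, and 2 higher and 0 lower at E14.5. Sensory neuron markers summed to 198 to 426 CPM in E16.5 mutants and 184 to 208 CPM in E16.5 controls, with 8 of 14 higher and 0 lower, and to 244 to 265 CPM in E14.5 mutants and 242 to 305 CPM in E14.5 controls, with 1 higher and 0 lower. Of the sensory neuron markers called higher, Tubb3 was at 87, 17.9 and 48.7 CPM in E16.5 mutant libraries 1, 2 and 3. Libraries 1 and 3 were those with retinal genes. The rest of those called higher, except Prph, were Elavl4, Gap43, Pou4f1, Snap25, Stmn2 and Uchl1. They also spread widely between E16.5 mutant libraries, with Pou4f1 at 0.147 to 10.4 CPM and Gap43 at 25.1 to 62.1 CPM. Prph alone had no such spread, at 3.73 to 4.62 CPM in E16.5 mutants. The part of retinal tissue in these markers was not tested. The E16.5 ranges of osteoclast, epithelial and sensory neuron sums overlapped between genotypes. The part of these cell types in the levels of the 9 genes was not tested.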

How the data were processed

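The authors deposited raw counts per gene for 12 libraries. Per the submitters' processing notes, reads were aligned to mm9 with HISAT2, counted with featureCounts and compared with DESeq2; versions, annotation and strand setting are not given in the sources used here. The authors' deposited comparison tables give log2 fold changes and adjusted p-values, quoted only where named. A further 24 columns of values by library, in tables of all 12 libraries together, were set aside. Names of 27 genes read as dates (0.251% of counts) and stayed in the fits.

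The test was the quasi-likelihood test of edgeR 4.0.16 in R 4.3.3 (TMM factors, filterByExpr, Benjamini-Hochberg adjustment over all genes tested, threshold 0.05). Mutants were set against controls with the 6 libraries of that age; the difference between ages and the change with age came from 1 fit of all 12 with 4 group means. The fit was tested on simulated counts. Levels are CPM with TMM factors over all libraries. The block by replicate number was one alternative. At E16.5 the deviations of same-numbered libraries from their group means correlated at 0.105, 0.161 and 0.222 over 17550 genes. Libraries numbered 3 also correlated across ages, at 0.159 in mutants and 0.158 in controls. A shared shift of the libraries numbered 3 would also give such values, so they do not establish pairs. The libraries numbered 3 entered the public record later than those numbered 1 and 2. Whether they were also made apart is not given. Other alternatives used limma 3.58.1, DESeq2 1.42.0 and other factors, filters and samples. From each list, up to 4 called genes with the largest change at each age were eligible to be named, along with the genes closest to Runx2, Sp7 and Creb3l1 in level; genes named for the difference between ages, and the 2 higher matrix genes, were chosen after their values were seen. One gene eligible by this rule is not reported here. The 9 genes and all lists were chosen with earlier results of these data known.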

Additional observations from a re-analysis of the deposited data

Results flagged for a closer look

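The genotype effect differed between the ages for 3 of the 9 genes, by the test of the difference itself in edgeR's quasi-likelihood fit of all 12 libraries. For Runx2 the log2 fold change at E16.5 minus that at E14.5 was -2.2 (adjusted p = 4.87e-05). For Creb3l1 it was -1.78 (adjusted p = 0.00151), and for Sp7 -1.16 (adjusted p = 0.00247). In each case all 3 mutant libraries were below all 3 controls at both ages.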

How the results depend on the processing

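Of 926 single-gene values for the 9 genes under the alternatives, 864 kept their side of the threshold, 13 passed it anew and 49 no longer did. Of values called in either fit, 0 reversed direction. A change of sign where neither fit called the gene was counted among the 864. Runx1 at E14.5, for example, ranged from -0.23 to 0.07. With a 2-fold minimum change, the count of the 9 genes called was 0 at E14.5, 3 at E16.5, 1 for the difference between ages, and 3 for age in mutants and in controls. Leaving out 1 library gave 3 to 4 at E14.5, 3 to 5 at E16.5 (3 without control library 1 or 2), 3 to 4 for the difference, 5 to 7 for age in mutants and 7 for age in controls. Without E16.5 mutant libraries 1 and 3 the count at E16.5 was 3. With the replicate block it was 5 for the difference (Cbfb and Atf4 added, adjusted p 0.0126 and 0.00964), as it was with a term for samples numbered 3. With the block Atf4 was also called at E14.5 (adjusted p = 0.0194), Runx1 for age in mutants (0.0218) and Atf4 for age in controls (0.00369). Same-numbered E14.5 libraries correlated at 0.0193, 0.0445 and 0.16 over all tested genes, and at 0.0783, 0.127 and 0.559 over the 13463 genes with a mean log2 CPM above 1. Over those genes, libraries numbered 3 correlated at 0.559 to 0.695 in the 4 pairs of groups compared.

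Over all genes, DESeq2 called 2120 at E14.5 against 1252 in edgeR, the block 3155 and the term for samples numbered 3 2938. For the difference the block called 6055 against 3921. Replicates 1 and 2 alone called 2286 at E16.5 against 4793, and 1961 for the difference. Without E16.5 mutant libraries 1 and 3 these were 2496 and 2017. A 2-fold minimum left 55 at E14.5, 571 at E16.5, 344 for the difference, 1717 of 9059 for age in mutants and 3289 of 11652 for age in controls. Leaving out 1 library gave 526 to 1412, 2781 to 5486, 2942 to 4723, 8000 to 9131 and 10830 to 11912. The cause of these moves was not tested. Fits with fewer libraries also change which libraries are compared. Depth was not varied; Runx3 had the fewest counts of the 9 genes, from 219 per library.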
